A study of Mus musculus with 6 samples.

Results

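The comparison described here is between differentiating C2C12 cells that all received exosomes, small secreted vesicles, isolated from fetal bovine serum (FBS) and that differed in the serum of the medium. Its members are 3 of the 6 libraries of the series, chosen by their labels. They are the libraries of 0.2% FBS + exosome, numbered here as replicates 1 and 2, and the 1 library of 2% HS + exosome. HS is horse serum. C2C12 is an established mouse myoblast line, 1 clonal line derived from skeletal muscle, which fuses into myotubes when serum is reduced. Cells were grown in DMEM with 10% FBS, and before confluence were moved to 0.2% FBS or 2% HS, with or without exosomes in the amount that 10% FBS holds, per the study's methods. The other 3 libraries are growing cells in 10% FBS, and differentiating cells in 2% HS and in 0.2% FBS to which no exosomes were added. Poly(A) RNA was sequenced and the values are FPKM, read counts normalised for transcript length and library depth. The labels give no genotype change and do not say whether the replicates of 0.2% FBS + exosome were separate cultures. The p-values thus rest only on the spread between these replicates, pooled largely over genes of like level, and that spread may be technical.

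In myogenic differentiation, Myod1 and Myf5 mark the committed myoblast, Myog drives the switch to differentiation, the cell cycle is left, and the genes of fusion and of the contractile apparatus are turned on. Myoblasts keep out of this programme through Notch signalling and Id proteins, which hold myogenic helix-loop-helix factors in inactive dimers. A separate programme, the amino acid response, is run by the transcription factor ATF4 when amino acids are short or translation is stressed, and turns on amino acid synthesis, amino acid transporters and aminoacyl-tRNA synthetases.

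All 6 libraries were of similar size, with depths of 33800000 to 39400000 reads as estimated from the spacing of low FPKM values, so that 1 FPKM of a 1500-base transcript corresponded to about 50.7 to 59.1 reads. The labelled cell type was matched by its markers. Myod1 stood between 83.7 and 110 FPKM and Myog between 350 and 720 FPKM in all 6 libraries, and none of the 8 endothelial markers reached a mean of 1 FPKM. The summed level of 8 fibroblast markers was 192 FPKM in 2% HS + exosome against 169 and 125 in replicates 1 and 2 of 0.2% FBS + exosome, most of it Dcn, with Thy1 at 0 in every library. The summed level of 8 macrophage markers was 5.03 against 8.86 and 9.56, with Emr1 at 0 in every library. The summed level of 8 osteoblast markers was 600 FPKM against 1226 and 1960, nearly all of it Spp1, with Sp7, Alpl and Ibsp at or near 0. That of blood and liver transcripts was 5.22 FPKM against 10.6 and 21.7, most of it Ppbp, with Alb at 0. That of 8 myotube markers was 17167 FPKM against 7779 and 5711. The part of such cells in the results below was not tested. In bulk RNA, fewer cells of a type and less RNA per cell cannot be told apart.

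The exosome-treated cells in 0.2% FBS had far less contractile and amino acid response RNA than those in 2% HS, and more Notch, Id, matrix and sterol synthesis RNA. Differences are given as log2(FPKM + 1) in 0.2% FBS + exosome minus 2% HS + exosome, so that a negative value means lower in 0.2% FBS + exosome, and a difference of 1 is 2-fold on that scale. Of the 10726 genes tested, those with a mean of at least 1 FPKM, 215 were more than 2-fold lower in both replicates (2.0% of those tested) and 128 were more than 2-fold higher in both (1.19%). No gene was past 2-fold in opposite directions in the replicates. In limma with Benjamini-Hochberg adjustment, 607 genes were called lower (5.66%) and 1340 were called higher (12.5%) at an adjusted p under 0.05. The 2% HS + exosome arm is 1 library, so its spread was taken from the replicates of 0.2% FBS + exosome. Limma drew each gene's spread mostly from genes of like level, with 7.27 prior degrees of freedom against 1 residual. An SE or adjusted p below is therefore not a measure of that gene's own replicate spread. The balance of the calls rested on the scaling: the median over all genes was 0.17, and with each library scaled to the same 75th percentile it was 0.02, with 866 genes called lower and 675 called higher. Where a list is said below to be lower or higher, its median kept that direction under this scaling.

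The same media differed little without exosomes. Between 0.2% FBS and 2% HS, 1 library each, 32 genes were more than 2-fold lower and 25 more than 2-fold higher, and limma called 0 genes, with 424 at an unadjusted p under 0.05. The SD across genes of the difference between media was 0.49 with exosomes and 0.23 without. That of the difference between the replicates of 0.2% FBS + exosome was 0.26. Across genes, which are not independent replicates, these differences had a Pearson r of 0.08 and a Spearman rho of 0.08, and they share no library. Of the 215 genes lower in both replicates, 186 lay within 0.5 of 0 without exosomes, as did 108 of the 128 higher genes. Only 6 lower genes (B4galt4, C1qtnf3, Mb, Myl2, Plekhb1 and Serpinb9g) and 1 higher gene (Ifitm1) were past 2-fold in the same direction without exosomes. A limma contrast of the media difference with exosomes minus that without called 93 genes lower (0.867%) and 32 genes higher (0.298%), with 2091 at an unadjusted p under 0.05.

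**Figure D1:**
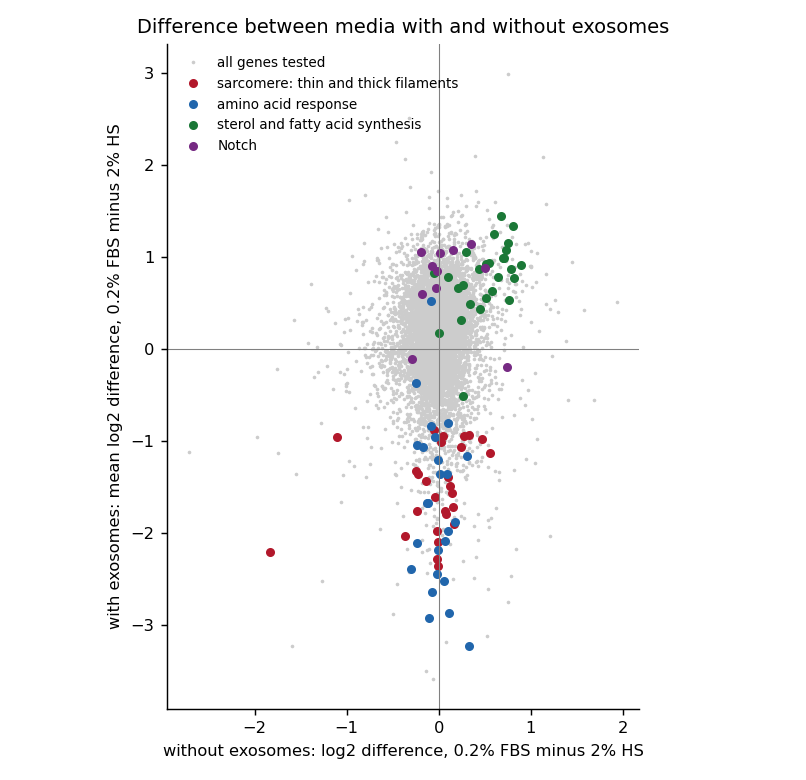
Each point is a gene; the x axis is the log2(FPKM + 1) difference of 0.2% FBS minus 2% HS without exosomes (1 library each) and the y axis the same difference with exosomes (mean of 2 libraries minus 1). The cloud is taller than wide, with an SD of 0.49 on the y axis and 0.23 on the x axis; most amino acid response and sarcomere genes lie below 0 on the y axis and near 0 on the x axis, and most sterol genes lie above 0 on both.

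The lower genes reached their levels by different routes. Of the 215 genes, 104 were more than 2-fold lower than 0.2% FBS in both replicates and had not moved past 2-fold up from 2% HS to 2% HS + exosome. A further 26 were more than 2-fold higher in 2% HS + exosome than in 2% HS without passing 2-fold in 0.2% FBS, 10 did both and 75 did neither. Of the 128 higher genes, 34 were more than 2-fold higher with exosomes in 0.2% FBS only, 2 were more than 2-fold lower with exosomes in 2% HS only, and 92 did neither. Each exosome change shares a library with the difference between media, so these counts describe where the levels lay.

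**Figure D2:**
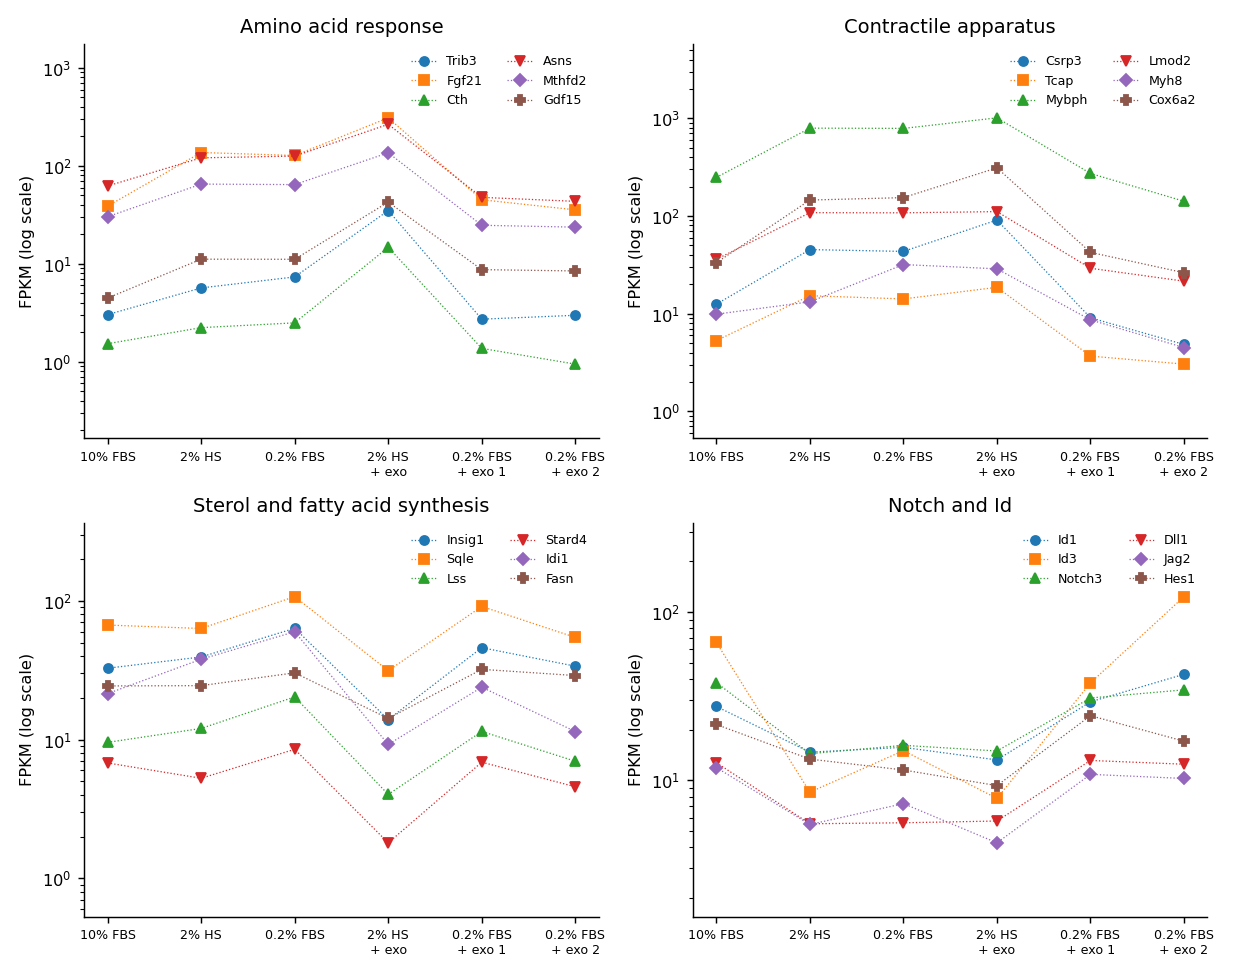
FPKM on a log axis in each of the 6 libraries for 6 genes in each of 4 groups; dotted lines join the values of 1 gene and have no order of time. Amino acid response genes peak in 2% HS + exosome, where Trib3 reached 34.9 FPKM, contractile genes are low in 10% FBS and 0.2% FBS + exosome, sterol genes are lowest in 2% HS + exosome, and Notch and Id genes are highest in 10% FBS and 0.2% FBS + exosome.

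The amino acid response had the lowest median of the gene lists with 6 or more members tested. Of its 25 members tested, 22 were called lower and none higher, against 5.66% of all genes called lower, and 19 were more than 2-fold lower in both replicates. The list's median difference was −1.67, with −1.72 in replicate 1 and −1.80 in replicate 2, and it was −0.02 without exosomes. The level was highest of all 6 libraries in 2% HS + exosome for 24 of the 25 genes, the exception being Ddit4. Over all genes tested, 1211 of 10726 were highest there.

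Trib3, a pseudokinase induced by ATF4, stood at 34.9 FPKM in 2% HS + exosome and at 2.71 and 2.97 FPKM in the replicates of 0.2% FBS + exosome. It was at 5.65 FPKM in 2% HS, 7.32 in 0.2% FBS and 3.02 in 10% FBS. The difference was −3.23 (SE 0.16, limma adjusted p = 0.000167), and the mean FPKM was 12.3-fold lower. The library of 2% HS + exosome was far above all others, and both replicates of 0.2% FBS + exosome lay below both libraries without exosomes. Cth, which makes cysteine from cystathionine, had the same shape, with 14.7 FPKM in 2% HS + exosome, 1.36 and 0.941 in 0.2% FBS + exosome, and 2.22 and 2.48 in 2% HS and 0.2% FBS. Its difference was −2.87 (SE 0.20, limma adjusted p = 0.000426).

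Fgf21, a secreted hormone of metabolic stress, was at 309 FPKM in 2% HS + exosome against 45.0 and 35.5 FPKM in 0.2% FBS + exosome. Without exosomes it was at 137 FPKM in 2% HS and 127 FPKM in 0.2% FBS, so that the exosome libraries lay on either side of both. The difference was −2.92 (SE 0.21, limma adjusted p = 0.000427). Asns, asparagine synthetase, was at 265 FPKM in 2% HS + exosome and at 47.6 and 43.4 FPKM in 0.2% FBS + exosome, with 121 and 126 FPKM in 2% HS and 0.2% FBS. Its difference was −2.52 (SE 0.19, limma adjusted p = 0.000521). Gdf15, a circulating stress cytokine, was at 42.6 FPKM against 8.69 and 8.43, and at 11.1 in both media without exosomes.

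Members of the list include enzymes of serine and one-carbon metabolism, which were not tested as a set of their own. Phgdh, the entry enzyme of serine synthesis, differed by −2.08, Psat1 by −1.88 and Psph by −2.11. In mitochondrial folate metabolism, Shmt2 differed by −1.67, Mthfd2 by −2.45 and Aldh1l2 by −2.64. All 6 were called lower by limma, with adjusted p from 0.000426 for Mthfd2 and Aldh1l2 to 0.00257 for Psat1. Among transporters, Slc7a5 differed by −1.98 and its partner subunit Slc3a2 by −1.67, while the cystine transporter Slc7a11, at 3.08 FPKM against 0.869 and 0.779, differed by −1.16. Among aminoacyl-tRNA synthetases, Wars differed by −1.36, Gars by −1.21, Sars by −1.07 and Aars by −0.96, all called lower.

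Atf4 itself was at 488 FPKM in 2% HS + exosome and at 282 and 277 FPKM in 0.2% FBS + exosome, a difference of −0.80 that missed the threshold (limma adjusted p = 0.0701). Ddit3 and Ddit4, other stress genes of the list, had differences of −0.38 and 0.52 that were not called. Atf3, listed with the immediate-early genes and also known as a stress target of ATF4, was at 21.7 FPKM against 4.15 and 2.13, a difference of −2.50 (SE 0.27, limma adjusted p = 0.00241). The chaperones of the endoplasmic reticulum, which respond to unfolded protein, had no called member of 19 tested and a median of 0.40, with 0.74 in replicate 1 and 0.05 in replicate 2, beside 5.66% of all genes called lower and 12.5% called higher.

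The difference between media for 15 of the 25 amino acid response genes differed from that without exosomes by the limma contrast, against 0.867% of all genes. For Trib3 that contrast was −3.55 (SE 0.25, limma adjusted p = 0.0036). The list rested partly on the library of 2% HS + exosome. The list's median difference, with exosomes minus without, was 1.02 in 2% HS and −0.70 in 0.2% FBS. With 2% HS without exosomes as the comparison, chosen after the data were seen, the median was −0.63 and 5 genes were more than 2-fold lower in both replicates.

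Promoter sequence shows what several of these genes share beyond their levels. ATF4 with C/EBP proteins binds an element with the core TGATGNAA, and this core, chosen after the values had been seen, was searched on both strands in the 250 bases before each start site of RefSeq (GRCm38.p6, the sequence of mm10). It was present for 7 of the 21 amino acid response genes with a promoter in that source (33.3%), against 2.31% of the 8220 tested genes with a promoter. It was present for 5.59% of genes called lower, these 7 among them, and 1.83% of genes called higher. List members were picked as genes of the programme that ATF4 runs, so the share of the list is not independent of that choice. Windows of 30 bases from 6 of these genes, 5′ to 3′ on the strand of the gene, are shown because they hold the shared core, which is in capitals and may be read on either strand.
Asns, chr6:7693214-7693243, minus strand: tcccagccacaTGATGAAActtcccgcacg
Fgf21, chr7:45615611-45615640, minus strand: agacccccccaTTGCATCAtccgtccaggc
Chac1, chr2:119351038-119351067, plus strand: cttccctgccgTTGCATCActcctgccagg
Slc7a11, chr3:50443661-50443690, minus strand: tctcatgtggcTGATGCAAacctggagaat
Nupr1, chr7:126625562-126625591, minus strand: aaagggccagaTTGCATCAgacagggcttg
Gars, chr6:55037960-55037989, plus strand: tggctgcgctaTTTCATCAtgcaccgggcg
The core began 23 bases before the start site in Asns and 139 bases before it in Fgf21. Slc7a11 held a further copy 47 bases before its start. All 7 genes were called lower. A match describes these letters only. Trib3, with a larger difference than any of them, had no match in this window.

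Genes of the contractile apparatus were lower in 0.2% FBS + exosome as a body. Of 27 tested genes of the thin and thick filaments, all 27 were lower in both replicates, 18 were called lower by limma and 18 were more than 2-fold lower in both replicates. Over all genes tested, 2901 of 10726 were lower in both, 5.66% were called lower and 2.0% were more than 2-fold lower in both. The list's median was −1.49, with −1.26 in replicate 1 and −1.72 in replicate 2, and 0.03 without exosomes. Here the shift lay in the 0.2% FBS libraries. The list's median difference, with exosomes minus without, was −1.46 in 0.2% FBS and 0.04 in 2% HS. Against 2% HS without exosomes the median was −1.55. Both replicates lay below both libraries without exosomes for all 27 genes.

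Mybph, a myosin-binding protein of the thick filament, stood at 1011 FPKM in 2% HS + exosome, at 273 and 141 FPKM in 0.2% FBS + exosome, and at 794 and 789 FPKM in 2% HS and 0.2% FBS. Its difference was −2.36 (SE 0.41, limma adjusted p = 0.0104). Lmod2, which elongates thin filaments, was at 111 FPKM against 29.2 and 21.5, a difference of −2.10 (SE 0.21, limma adjusted p = 0.00196). Both replicates lay far below the 3 other differentiating libraries for both genes. The most abundant members were lower too but had wide limma errors. Those errors come mostly from the spread of genes of like level, not from the replicates of these genes. Acta1, skeletal muscle actin, was at 4077 FPKM against 2335 and 1610, a difference of −1.07 that was not called (limma adjusted p = 0.261), and Mylpf, the fast regulatory light chain, at 7134 FPKM against 2740 and 2118, a difference of −1.57 (limma adjusted p = 0.164). Myl2 and Tpm3 were the members that also differed without exosomes, by −1.83 and −1.10, beside −2.20 and −0.96 with them.

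Of 8 myosin heavy chain genes tested, 5 were called lower and none higher, beside 5.66% of all genes called lower. The list's median was −1.17 with exosomes, 0.52 without them and −0.65 against 2% HS without exosomes. Myh8, the perinatal isoform, was at 28.8 FPKM in 2% HS + exosome against 8.64 and 4.50 in 0.2% FBS + exosome, a difference of −2.03 (SE 0.29, limma adjusted p = 0.00585). Without exosomes it was at 13.2 FPKM in 2% HS and 31.8 FPKM in 0.2% FBS, a difference of 1.21 in the opposite direction, and Myh7 differed there by 1.07. Myh4, a fast isoform, differed by −1.83 and Myh1, another, by −1.35, and both were called. Myh3, the embryonic isoform and by far the most abundant of the striated isoforms, was at 1566 FPKM against 713 and 404, a difference of −1.54 that narrowly missed the threshold (limma adjusted p = 0.0525) and passed it with the 75th percentile scaling. The nonmuscle chain Myh9 stood apart, at 234 FPKM against 325 and 295 (difference 0.41, not called). These chains are close paralogs, and reads in shared exons may be split between them.

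Z-disc and stress-responsive proteins were lower too. Of 23 tested, 19 were called lower (5.66% of all genes were), none higher, with a median of −1.25. Csrp3, muscle LIM protein, had the largest lower difference of all genes tested. It stood at 90.9 FPKM in 2% HS + exosome, at 9.08 and 4.84 FPKM in 0.2% FBS + exosome, at 45.3 and 43.4 FPKM in 2% HS and 0.2% FBS, and at 12.5 FPKM in 10% FBS. The difference was −3.58 (SE 0.28, limma adjusted p = 0.000581), 13.1-fold in mean FPKM. Csrp3 was thus above the libraries without exosomes in 2% HS and below them in 0.2% FBS. Tcap, the titin cap, was at 18.6 FPKM against 3.68 and 3.04 (−2.17). Ankrd2, a stretch-responsive ankyrin repeat protein, differed between the replicates, at 156 FPKM against 51.4 and 14.3, with a difference of −2.47 (SE 0.56, limma adjusted p = 0.0235) whose call was lost with a median of ratios scaling.

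Genes of excitation and contraction coupling were lower by a median of −0.94, with 13 of 19 called lower and none higher, beside 5.66% and 12.5% of all genes. Casq2, a calcium store protein, differed by −2.02, Cacna1s, the voltage sensor of the T-tubule, by −1.85 and Scn4a, the muscle sodium channel, by −1.25, while Casq1 and Ryr3 differed by −0.07 and 0.25 and were not called. In muscle energy metabolism 8 of 20 were called lower and 1, the glucose transporter Slc2a1, higher, a call that was lost with the 75th percentile scaling and with a median of ratios scaling. Cox6a2, the muscle isoform of a cytochrome oxidase subunit, was at 311 FPKM in 2% HS + exosome against 42.4 and 26.3, and at 146 and 154 in 2% HS and 0.2% FBS. Its difference was −3.18 (SE 0.27, limma adjusted p = 0.000953). The general subunits of the respiratory chain had no called member of 24, and 3 called lower with the 75th percentile scaling. Ckm, muscle creatine kinase, was at 675 FPKM against 392 and 288 (difference −1.004, limma adjusted p = 0.0712), and was called with the 75th percentile scaling.

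Fusion genes showed 7 of 16 called lower and 1 higher, the first above and the latter below the 5.66% and 12.5% of all genes. The fusogens Mymk, listed under its older symbol Tmem8c, and Mymx, listed as Gm7325, differed by −1.45 and −1.10 and were both called, though Mymk (Tmem8c) lost its call against 2% HS without exosomes (−1.30). Mymk (Tmem8c) was at 1088 FPKM in 2% HS + exosome against 486 and 327. The caveolar genes Cav3 and Cavin4 (listed as Murc) differed by −1.84 and −2.12. Kirrel, an adhesion protein, was the member called higher, at 12.7 FPKM against 29.9 and 24.3. Cdh15, M-cadherin, a marker of committed myoblasts as well as myotubes, was at 153 FPKM against 149 and 152, with a difference of −0.03.

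The E-box CAGCTG, a form of the CANNTG site of myogenic helix-loop-helix factors and so counted within it, was searched in the same way. It was present for 10 of 21 thin and thick filament genes with a promoter (47.6%) and for 5 of 17 Z-disc genes (29.4%), against 14.4% of all tested genes, 22.1% of genes called lower and 17.6% of genes called higher. The MEF2 site was present for 7.16% of genes called lower, 0.963% of genes called higher and 1.97% of all. Windows from 4 genes called lower are shown for the core they share, in capitals.
Mybph, chr1:134193357-134193386, plus strand: gacctgaccccaCAGCTGggaatggtttgc
Mybpc1, chr10:88605222-88605251, minus strand: gagcacgaggcaCAGCTGaatttagaaagt
Myoz2, chr3:123034982-123035011, minus strand: gccagttgatgtCAGCTGgatgccagtctt
Filip1, chr9:79977913-79977942, minus strand: gggctgataaccCAGCTGcctaggaactga
Beside these windows, Mybpc1 was at 34.4 FPKM in 2% HS + exosome against 9.23 and 6.24, Myoz2 at 112 against 33.3 and 23.7, and Filip1 at 16.3 against 4.18 and 2.96. The replicates of 0.2% FBS + exosome were below 2% HS + exosome by more than 2-fold in all of them.

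The regulators of myogenesis divided. Myod1 was nearly level, at 91.0 FPKM in 2% HS + exosome and 87.6 and 101 FPKM in 0.2% FBS + exosome, and the sign of its small difference of 0.05 turned to −0.12 with the 75th percentile scaling. Myog was at 720 FPKM against 350 and 402, a difference of −0.94 (SE 0.32) that missed the threshold (limma adjusted p = 0.0723) and passed it with the 75th percentile scaling. Mef2c, which acts with Myog, was at 12.2 FPKM against 4.39 and 3.48 and was called lower (−1.42, limma adjusted p = 0.00411). Myf5 went the other way, at 4.22 FPKM against 10.1 and 12.9, a difference of 1.25 (SE 0.19, limma adjusted p = 0.00645). Pax7, the satellite cell factor, stayed under 0.7 FPKM in all libraries and was not tested. Cdkn1a, the cell cycle inhibitor of differentiating myoblasts, was at 927 FPKM against 486 and 444, a difference of −0.995 that was not called (limma adjusted p = 0.0795) but was with the 75th percentile scaling, and replication and mitosis genes showed 1 called lower and 1 higher of 35, below the shares of all genes (5.66% and 12.5%).

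Id1, Id2 and Id3, inhibitors of the myogenic factors, were all called higher. Of the 13 myogenic transcription factors tested, which include them, 7 were called higher, beside 12.5% of all genes. With a median of ratios scaling 4 were, beside 479 of all 10726 genes. Id3 was at 7.80 FPKM in 2% HS + exosome and at 37.9 and 123 FPKM in 0.2% FBS + exosome, with 8.50 in 2% HS, 15 in 0.2% FBS and 65.9 in 10% FBS. Its difference of 2.98 was the largest higher difference of all genes tested (SE 0.53, limma adjusted p = 0.0114), and the replicates differed more than 3-fold from each other. Id1 was at 13.2 FPKM against 29.3 and 42.6 (difference 1.35), and Id2 at 3.29 FPKM against 6.66 and 10.2 (difference 1.11). For Id2 the library of 2% HS + exosome was the low one, with 8.32 FPKM in 2% HS and 6.06 FPKM in 0.2% FBS. Of 11 Notch pathway genes tested, 7 were called higher and none lower, against 12.5% of all genes called higher, with a median of 0.88 and of −0.02 without exosomes.

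Among the Notch receptors, Notch3 was at 14.9 FPKM in 2% HS + exosome and at 30.8 and 34.4 FPKM in 0.2% FBS + exosome, a difference of 1.08 (SE 0.16, limma adjusted p = 0.00677). Notch1 and Notch2 differed by 0.88 and 0.84 and were called. The ligands Jag2, Dll1 and Jag1 differed by 1.14, 1.03 and 0.90, and all 3 were called. The target Hes1 was at 9.29 FPKM against 24.2 and 17.1, a difference of 1.05 (limma adjusted p = 0.0163). Its relatives Hey1 and Heyl differed by 0.66 and −0.20 and were not called, and in Heyl the replicates lay on either side of 2% HS + exosome. The levels in 0.2% FBS + exosome were near those of growing cells: the list's median difference from 10% FBS was −0.07, and that of 2% HS + exosome was −0.79. Over all genes tested these medians were 0.04 and −0.12. In 0.2% FBS + exosome 9914 of all 10726 genes lay within 0.5 of 10% FBS, so this nearness is not particular to Notch.

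**Figure D3:**
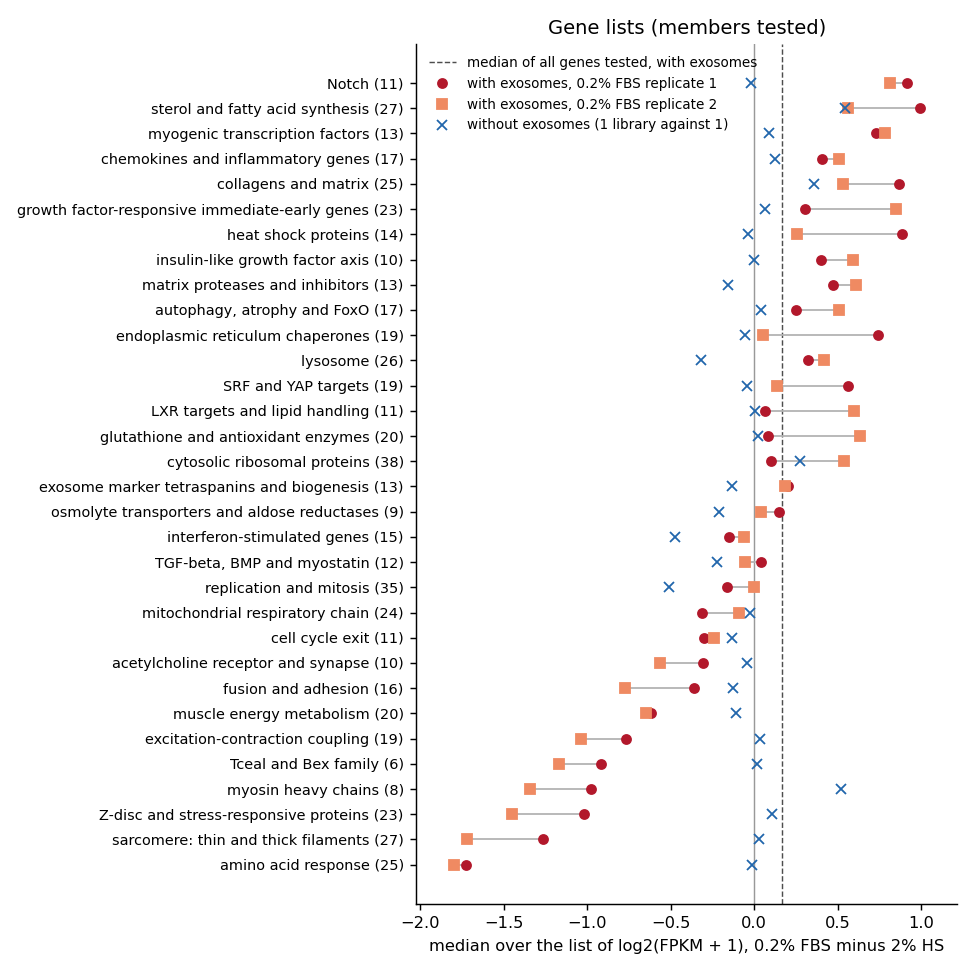
Median over each gene list (number of members tested in parentheses) of the log2(FPKM + 1) difference, 0.2% FBS minus 2% HS, for each exosome replicate against the 1 library of 2% HS + exosome, and for the libraries without exosomes. The amino acid response list, at −1.72 and −1.80, and the thin and thick filaments, at −1.26 and −1.72, lie to the left with values without exosomes near 0, myosin heavy chains lie to the left with a value of 0.52 without exosomes, and Notch lies to the right; the dashed line is the median of all genes with exosomes, 0.17.

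Sterol and fatty acid synthesis differed between media in another way. Of 27 genes, 13 were called higher and none lower, beside 12.5% of all genes called higher, but with the 75th percentile scaling 4 were called, beside 675 of all 10726 genes. The list's median was 0.83 with exosomes (0.99 and 0.56 in the replicates) and 0.54 without them. All 27 genes were lower in 2% HS + exosome than in both libraries without exosomes, which was so of 4479 of all 10726 genes. The list's median difference, with exosomes minus without, was −0.99 in 2% HS and −0.77 in 0.2% FBS. With 2% HS without exosomes as the comparison the median turned to −0.11.

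Insig1, which holds the sterol sensor in the endoplasmic reticulum and is itself induced when sterol is low, was at 13.9 FPKM in 2% HS + exosome and at 46.0 and 33.9 FPKM in 0.2% FBS + exosome, and at 39.5 and 63.5 FPKM in 2% HS and 0.2% FBS. Its difference was 1.44 (SE 0.21, limma adjusted p = 0.00594). Sqle, squalene epoxidase, was at 31.4 FPKM against 91.3 and 54.6, and at 63.3 and 108 FPKM without exosomes, a difference of 1.15 (SE 0.28, limma adjusted p = 0.0292). In both genes 2% HS + exosome was the lowest of all 6 libraries and 0.2% FBS without exosomes the highest. Stard4, a cholesterol carrier, was at 1.80 FPKM against 6.88 and 4.57 (difference 1.24). Idi1 and Fdps, enzymes of isoprenoid synthesis, differed by 0.78 and 0.53 and were not called. Dhcr7 alone was lower in both replicates, by −0.51, not called.

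Collagens and other matrix genes were higher in 0.2% FBS + exosome, with 11 of 25 called higher beside 12.5% of all genes, none lower, and 7 called with the 75th percentile scaling. The median was 0.67 with exosomes and 0.36 without, so that part of it was seen without exosomes. Col1a1 was at 53.8 FPKM in 2% HS + exosome and at 120 FPKM in both replicates (difference 1.14, limma adjusted p = 0.00818), beside a difference of 0.84 without exosomes. Col6a2 differed by 0.89 with and by 1.00 without exosomes. Tnc, tenascin C, was at 8.74 FPKM against 22.5 and 20.0 (difference 1.19), and Loxl1, which crosslinks elastin, differed by 1.00 with and by −0.17 without exosomes. Of 13 matrix proteases and inhibitors 4 were called higher, and 2 with a median of ratios scaling, among them Timp3 (1.25) and Plau (0.95), the urokinase gene.

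Of 17 chemokine and inflammatory genes, 6 were called higher and 2 lower, beside 12.5% and 5.66% of all genes. Cxcl1, a neutrophil chemokine, was at 4.82 FPKM in 2% HS + exosome against 16.1 and 35.1, a difference of 2.09 (SE 0.36, limma adjusted p = 0.0104). Cxcl5, its relative, was at 8.63 FPKM against 21.9 and 36.1 (difference 1.60). The lower genes were Ptgs2, the inducible cyclooxygenase, at 37.7 FPKM against 11.8 and 10.2, and Chil1, a chitinase-like protein, at 11.9 FPKM against 1.39 and 0.873. In the insulin-like growth factor axis, Igf2 was called lower, at 184 FPKM against 73.1 and 86.9, while the receptor Igf1r, the binding protein Igfbp2 and the substrates Irs1 and Irs2 were called higher. Cytosolic ribosomal protein genes had no called member of 38.

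The replicates of 0.2% FBS + exosome differed from each other in stress and immediate-early genes. Hspa1b, an inducible heat shock protein whose near-identical copy Hspa1a can share its reads, was at 1.97 FPKM in 2% HS + exosome against 30.05 and 5.39, a difference of 2.25 (SE 0.71, limma adjusted p = 0.0599). Hsph1 was at 38.2 FPKM against 174 and 33.0, high in replicate 1 alone. The median of 14 heat shock genes was 0.89 in replicate 1 and 0.26 in replicate 2. Fos, an immediate-early gene, was at 4.32 FPKM against 8.03 and 100, high in replicate 2 alone, and at 113 FPKM in growing cells in 10% FBS. Its difference of 2.51 (SE 1.06) was not called (limma adjusted p = 0.13). Of 23 immediate-early genes, 4 were called higher (Ier3, Dusp6, Spry2 and Spry4) and Atf3 was called lower, shares near the 12.5% and 5.66% of all genes. The part of these differences between replicates in other results was not tested.

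Tceal genes, which encode proteins like the transcription elongation factor TFIIS, held 2 of the 3 members called lower in a list of 6 tested Tceal and Bex genes, beside 5.66% of all genes. Tceal7 was at 48.6 FPKM in 2% HS + exosome and at 10.7 and 5.64 FPKM in 0.2% FBS + exosome, and at 58.9 and 77.1 FPKM in 2% HS and 0.2% FBS. Its difference was −2.49 (SE 0.29, limma adjusted p = 0.00326). Tceal5 was at 7.27 FPKM against 1.11 and 1.12, and at 5.44 and 5.58 FPKM without exosomes, a difference of −1.97 (SE 0.17, limma adjusted p = 0.00101). For both genes 2% HS + exosome lay near the libraries without exosomes and the 0.2% FBS replicates far below. Bex1, a related small protein, differed by −1.63 and was called. Tceal8 differed by −0.46 and Tceal9, listed as Wbp5, by −0.08, and neither was called, though Tceal8 was with the 75th percentile scaling (−0.62), while Tceal1, Tceal3 and Tceal6 had a mean under 1 FPKM. These genes were named because the study names them, so their direction is not independent evidence.

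Among the 15 largest differences in each direction, taken from genes past 2-fold in both replicates and at 5 FPKM or more in the higher condition, 5 lower genes are of the amino acid response list and 4 higher genes, Hspa1b, Dnajb1, Slc5a3 and Sprr1a, had replicate 1 at more than 2 times the level of replicate 2. Another 4 higher genes, Id3, Cxcl1, Stmn2 and Plac8, had replicate 2 at more than 2 times the level of replicate 1. Adm2, a peptide hormone of the adrenomedullin family, was at 43.2 FPKM in 2% HS + exosome against 3.15 and 2.64, with 10.7 and 9.65 in 2% HS and 0.2% FBS (difference −3.51, SE 0.17, limma adjusted p = 0.000167). P2rx3, an ATP-gated channel, and Cdsn, a skin adhesion protein, were high in 2% HS + exosome alone. P2rx3 was at 8.20 FPKM there and between 0.293 and 1.41 elsewhere, and Cdsn at 12.5 FPKM there and between 0.489 and 2.09 elsewhere. P2rx3 reached the mean of 1 FPKM needed for testing only through that library. Serpinb9g, of a multigene serpin family whose reads may be shared, was at 12.6 FPKM against 0.411 and 0.480, and differed by −1.59 without exosomes. C1qtnf3, a secreted C1q-like protein, was at 267 FPKM against 66.2 and 31.2, and at 444 and 183 FPKM in 2% HS and 0.2% FBS.

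Kbtbd11, a kelch repeat protein, was at 4.75 FPKM in 2% HS + exosome and at 17.3 FPKM in both replicates, and at 6.71 and 3.41 FPKM in 2% HS and 0.2% FBS, so that its difference of 1.67 stood beside −0.81 without exosomes. Zfp36l2, which binds AU-rich RNA, was at 16.3 FPKM against 48.8 and 50.4 (difference 1.55, limma adjusted p = 0.00207), and Rgl1, an exchange factor for Ral, at 6.501 FPKM against 20.2 and 24.6 (difference 1.63). Hdac7, a histone deacetylase of the class that binds MEF2, was at 4.84 FPKM against 18.3 and 14.2 (difference 1.55). Ifitm1, an interferon-inducible membrane protein, was at 4.04 FPKM against 15.5 and 26.7, and was higher in 0.2% FBS without exosomes too, by 1.13. Sprr1a and Slc5a3, the latter a myo-inositol transporter, were called, but Slc5a3 lost its call with a median of ratios scaling, and Sprr1a with both scalings and against 2% HS without exosomes, where its difference was 0.37.

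**Figure D4:**
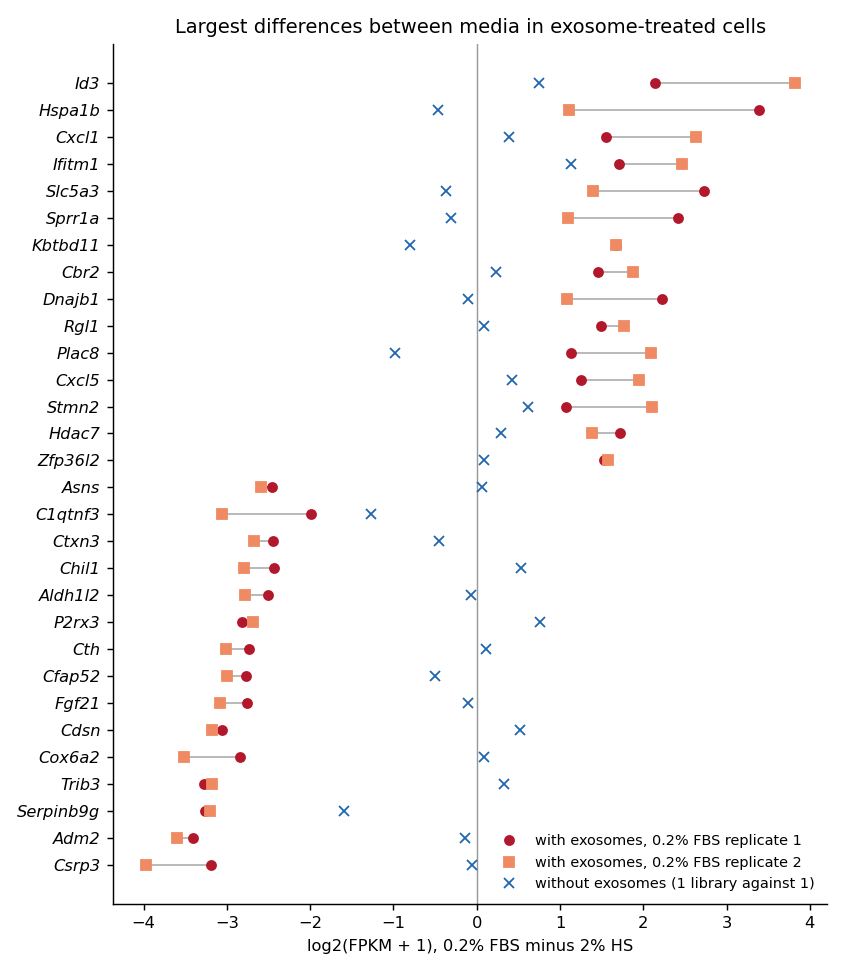
The 15 largest mean differences in each direction among genes past 2-fold in both replicates and at 5 FPKM or more in the higher condition; the x axis is the log2(FPKM + 1) difference, 0.2% FBS minus 2% HS, points are the exosome replicates, grey lines join them and crosses are the libraries without exosomes. The lower genes reach −3.58 for Csrp3, the replicates lie far apart for Id3 and Hspa1b at the top and over 1 apart for C1qtnf3 among the lower genes, and most crosses lie near 0.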

How the data were processed

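Reads of 75 bases from TruSeq stranded libraries were trimmed by the authors with cutadapt 1.9.1 and mapped to mm10 with TopHat2 2.1.0, and the deposited FPKM values were computed with Cufflinks. The annotation and the strand setting are not given in the sources used here, so overlapping genes may share reads. The table holds 20950 entries; 10 rows with a repeated name were left out. Log2(FPKM + 1) was fitted with limma 3.58.1 (R 4.3.3) with a mean-variance trend and 1 mean per condition over all 6 libraries, which left 1 residual degree of freedom. p-values were adjusted (Benjamini-Hochberg) over the 10726 genes whose mean over all libraries reached 1 FPKM. The log2 scale with a pseudocount understates changes of low genes. The fold values of Trib3 and Csrp3 are ratios of mean FPKM. Genes counted as past 2-fold are those with a difference of log2(FPKM + 1) beyond 1.

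Alternatives were a pseudocount of 0.1, 2 scalings, other filters, other fits and each replicate left out. Named genes were those the study names, the 15 largest differences in each direction, and those shared with the media without exosomes (54 tested); list members are named beside them and are not in that number. Members and lists were chosen with earlier results of these data known. The limma step was tested on simulated data. Positions and sequences are from RefSeq, GRCm38.p6.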

Additional observations from a re-analysis of the deposited data

Results flagged for a closer look

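For 23 of the 54 named genes tested, the difference between media with exosomes differed from that without exosomes by the limma contrast of the differences (adjusted p under 0.05), 20 of them lower and 3 higher, beside 0.867% and 0.298% of all genes. Of these named genes, 30 were chosen for their large differences with exosomes, which enter this contrast. Others, Tceal5 and Tceal7 among them, are named by the study as lower with exosomes in these same data. The count is thus not independent of the choice. The libraries without exosomes are 1 of each, so their spread was borrowed from the replicates. The contrast was −3.55 for Trib3, −2.99 for Cth, −2.82 for Fgf21, −2.58 for Asns and −2.57 for Aldh1l2, all amino acid response genes. It was −3.52 for Csrp3, −3.27 for Cox6a2 and −2.40 for Myh4, genes of muscle. It was −2.87 for Tceal7 and −1.996 for Tceal5. Among the other lower genes it was −3.64 for Cdsn, −3.51 for P2rx3, −3.37 for Adm2, −3.15 for Chil1, −3.02 for Ces2c, −2.57 for 8430408G22Rik, −2.38 for Cfap52, −2.10 for Ctxn3, −1.94 for Spink4 and −1.64 for Serpinb9g. The higher ones were Kbtbd11 with 2.48, Rgl1 with 1.55 and Zfp36l2 with 1.46. Of the lower ones, P2rx3 passed the filter on low values only through its level in 2% HS + exosome.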

How the results depend on the processing

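The 607 lower calls of limma fell to 0 without a filter on low values, as did the 1340 higher calls, with 3535 genes at an unadjusted p under 0.05. Higher calls were 675 with the 75th percentile scaling, 479 with the median of ratios scaling and 842 against 2% HS without exosomes, chosen after seeing the data. Genes more than 2-fold higher in both replicates were 263 with a pseudocount of 0.1, 58 and 55 with those scalings and 76 against 2% HS without exosomes, and leaving out a replicate gave 240 to 374. For the contrast of media differences, the lower calls were 38 with the median of ratios scaling, 40 without the trend and 0 without a filter; the higher calls were 58 with a pseudocount of 0.1, 21 with the 75th percentile scaling, 5 with the median of ratios scaling, 5 without the trend and 0 without a filter. The cause of these shifts was not tested. The correlation across genes stayed between 0.067 and 0.093. Among the 54 named genes, 46 kept direction and call with the 75th percentile scaling and 46 against 2% HS without exosomes; Cth, Cdsn, P2rx3, Sprr1a and Tmem8c lost their calls there, with −0.59, −0.46, −0.06, 0.37 and −1.30. Sprr1a and Dnajb1 lost theirs with both scalings, and Ankrd2, Slc5a3 and Stmn2 with the median of ratios scaling. Myh3 gained a call with a pseudocount of 0.1, the 75th percentile scaling, a minimum of 5 FPKM, the 3 exosome libraries alone and no trend. Myog, Ckm and Cdkn1a gained one with the 75th percentile scaling and without the trend, and Tceal8 with both scalings and against 2% HS without exosomes. Calls were also gained by Myog with the median of ratios scaling, Ckm against 2% HS without exosomes and Hspa1b with a pseudocount of 0.1. No paired analysis was run because the labels do not link libraries of the compared groups to each other. With 1 library in the 2% HS + exosome arm, its own spread is unknown. The precision of low genes is limited by depth, about 51.2 reads for 1 FPKM at 1500 bases in that library.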

Other observations

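Calls in other gene lists are given as limma adjusted p under 0.05 in 0.2% FBS + exosome against 2% HS + exosome, beside 5.66% of all genes called lower and 12.5% called higher. Among exosome marker and biogenesis genes, 3 of 13 were called higher: Cd9, a tetraspanin of the vesicle membrane, at 98.2 FPKM in 2% HS + exosome against 191 and 210, Flot1 at 20.4 against 37.7 and 45.8, and Sdcbp at 40.9 against 62.3 and 74.1. In that list 2 genes were called higher with the 75th percentile scaling, and 2 with the median of ratios scaling. Of 11 lipid handling genes, 2 were called lower and 3 higher. Acot2, a mitochondrial thioesterase, was called lower at 15.1 FPKM against 3.06 and 4.13, and Plin2, a lipid droplet coat protein, was called higher at 83.4 FPKM against 147 and 184. Of 17 autophagy and atrophy genes, 2 were called lower and 3 higher. The muscle ubiquitin ligases differed in opposite directions, with Fbxo32 called higher at 27.5 FPKM against 47.8 and 53.7, and Trim63 called lower at 30.4 FPKM against 17.0 and 14.0. Of 19 SRF and YAP targets, Flna, Cnn2, Tpm4, Actg2 and Srf were called higher and Ankrd1, Ctgf and Amotl2 lower. With the 75th percentile scaling 4 of these targets were called higher and 4 lower, and with the median of ratios scaling 3 higher and 4 lower. Lysosomal genes had 3 of 26 called higher, a share not above that of all genes, and with the 75th percentile scaling 0.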
